A study of Homo sapiens with 2 samples.

Results

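Divergent transcripts are long noncoding RNAs (lncRNAs) that start beside the promoter of a protein-coding gene and run away from it on the other strand, and their symbols end in -DT after the name of that gene. The set described here holds the autosomal lncRNA genes with such a symbol and with at least 100 reads in at least 1 of the 2 sequenced leukemia lines. It has 104 members, out of 557 autosomal -DT lncRNAs with an entry in the count data and out of 57773 gene entries in all. Each member was compared with the coding gene named before -DT, called its partner. Since the reads themselves chose the members, their ratios between the lines are a description. For 41 members the minimum was met in a single line (27 in REH and 14 in 697), and 63 members met it in both.

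Most promoters of active mammalian genes that are rich in CG dinucleotides start transcription in both directions. The coding RNA is spliced and exported, whereas the upstream RNA usually meets early cleavage signals and is degraded by the nuclear exosome, a complex of RNA-digesting proteins. Binding of the U1 small nuclear ribonucleoprotein shields the coding RNA from those early signals. A divergent transcript that is annotated as a lncRNA is one that is long or stable enough to be seen as a transcript, and since both RNAs leave the same open stretch of DNA their levels are often read together. In leukemia, lncRNAs named after known genes are therefore hard to separate from the state of the gene next to them.

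As part of a study of lncRNAs in leukemia with the ETV6/RUNX1 fusion, RNA was sequenced from 2 cell lines of acute lymphoblastic leukemia of B-cell precursors (BCP-ALL). In REH the ETV6/RUNX1 fusion is present and the other ETV6 allele is deleted, whereas 697 lacks the fusion. Both lines were grown untreated in RPMI medium with serum, and each was sequenced as 1 library. The lines come from different leukemias and differ in far more than the fusion, so no difference between them can be ascribed to it.

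The REH library held 63954817 reads, 45188375 of them in genes, and the 697 library held 58948890 reads, 41097497 of them in genes. With 1 library per line there is no spread to test against, no p-value is given for any gene, and the intervals in brackets are 95% intervals of counting error only. A level is given in CPM, reads per 1000000 after scaling of the library totals, and a count of 3 reads, taken as the floor, equals 0.0597 CPM in REH and 0.0812 CPM in 697. Of the 9 markers of B-cell precursors read here (CD79A, PAX5, DNTT and others), 8 exceeded 1 CPM in REH and 9 in 697, and VPREB1, the surrogate light chain gene, had 3 reads in REH and 10039 in 697. The summed level of these markers was 5478 CPM in REH and 7851 CPM in 697, but single markers differed in both directions. DNTT, the one with the most reads in 697, had 57392 in REH and 163775 in 697. By contrast, CD79A had 32911 and 10614 reads and RAG1 77158 and 21317, so the sum does not rank the lines by precursor markers. Summed T cell markers reached 10.8 CPM and 2.38 CPM, with CD3D at 0 reads in both. The 4 myeloid markers reached 253 CPM in REH and 2.25 CPM in 697, and MPO alone had 12643 and 12 reads. Erythroid markers summed to 0 CPM in REH and 0.0271 CPM in 697, with HBB and HBA1 at 0 reads in both, and epithelial and stromal markers to 9.51 CPM and 10.5 CPM. What part these differences in cell state have in the ratios below was not tested.

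In the GENCODE 44 annotation of GRCh38, all 104 members lay on the strand opposite to their partner. The starts of the genes were within 1000 bases of each other in 95 pairs and within 300 bases in 70, with a median distance of 217 bases, and the partner was the coding gene with the nearest start for 101 members. Since members were taken by their -DT symbols, these positions describe the annotated geometry and are no independent check of the label. In 9 pairs the starts were more than 1000 bases apart, as for GARS1-DT, whose annotated start lies 14753 bases inside GARS1, and CTBP1-DT, 1456 bases inside CTBP1. Genes overlapped at their starts in 37 pairs, and exons of member and partner overlapped in 31.

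RefSeq promoter windows on GRCh38.p14, which reach from 250 bases before a start to 50 bases after it, were matched by symbol for 90 partners and 83 members. In the 81 pairs with both windows, the outermost RefSeq starts lay a median of 155 bases apart, with 57 gaps between 1 and 250 bases and 8 pairs with overlapping starts. The windows of the partners were rich in CG dinucleotides. Their median ratio of observed to expected CG was 0.919, against 0.765 for the windows of 15101 coding genes, and their median GC content was 69.3% against 62.7%. Letters of 6 motifs were searched on both strands, and none of them contains another. The share of partner windows holding CCGGAAG, the core of ETS family sites, was 36.7%, against 14.3% of all coding windows. GGGCGG, the GC box, was held by 76.7% against 58.7%, and CCAAT by 41.1% against 36.1%. TATAAA was held by 6.67% against 9.83%, TGTGGT, the core bound by RUNX proteins, by 10.0% against 11.0%, and the NRF1 palindrome by 1.11% against 1.78%. In the 83 windows of the lncRNAs themselves, the ETS core was held by 28.9%, the GC box by 77.1%, CCAAT by 37.3%, TATAAA by 6.02%, the RUNX core by 8.43% and the NRF1 palindrome by 4.82%, with a median observed to expected CG ratio of 0.904. These shares describe letters in a window, with no measurement of binding. The 15101 coding windows were not matched to the partners in expression, CG ratio or GC content. Whether the differences in shares are particular to divergent pairs was not tested.

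The DNA between the 2 starts lies in the promoter region of both genes, and it is shown for pairs on which the results below turn. All are given 5′ to 3′ on the strand of the coding partner. They run from the base after the RefSeq start of the lncRNA to the base before the RefSeq start of the coding gene. Matches to the CCAAT, GC box and ETS motifs on either strand are in capitals. RefSeq starts can differ from the GENCODE positions given with the genes below. The IRX2 stretch, for example, ends at 2751892, whereas IRX2-DT starts at 2752131 in GENCODE. IRX2 (chr5:2751678-2751892, minus strand) is shown as the pair with no reads in REH, and PRKACB (chr1:84077829-84078078, plus strand) as a pair in which the lncRNA alone had none. For PRKACB no window of the lncRNA was matched, so the 250 bases before the coding start are printed.
IRX2: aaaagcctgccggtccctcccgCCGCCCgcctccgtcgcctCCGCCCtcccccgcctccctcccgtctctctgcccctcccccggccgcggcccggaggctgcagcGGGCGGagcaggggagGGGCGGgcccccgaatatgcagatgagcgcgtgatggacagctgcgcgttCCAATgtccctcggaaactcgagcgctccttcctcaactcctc
PRKACB: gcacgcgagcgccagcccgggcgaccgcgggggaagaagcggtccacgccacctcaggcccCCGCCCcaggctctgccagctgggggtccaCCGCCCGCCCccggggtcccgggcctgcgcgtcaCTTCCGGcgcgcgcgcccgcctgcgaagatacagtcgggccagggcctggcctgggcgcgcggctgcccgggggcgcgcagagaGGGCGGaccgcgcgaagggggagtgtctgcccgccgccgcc

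C2orf74 (chr2:61144976-61145115, plus strand), RPL34 (chr4:108620458-108620575, plus strand) and BOLA3 (chr2:74147913-74147980, minus strand) are shown for the lncRNAs that were highest in REH relative to 697.
C2orf74: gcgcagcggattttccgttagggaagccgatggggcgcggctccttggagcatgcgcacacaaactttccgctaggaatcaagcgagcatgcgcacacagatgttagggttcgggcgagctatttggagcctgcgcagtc
RPL34: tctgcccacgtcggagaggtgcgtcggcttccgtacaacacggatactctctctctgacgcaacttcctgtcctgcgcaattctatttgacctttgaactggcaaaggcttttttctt
BOLA3: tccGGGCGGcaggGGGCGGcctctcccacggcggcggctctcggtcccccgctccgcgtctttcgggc

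HK2 (chr2:74833988-74834126, plus strand), FLVCR1 (chr1:212858139-212858274, plus strand) and CENATAC (chr11:118998003-118998137, plus strand) are shown as pairs in which lncRNA and coding gene differed widely in their ratios.
HK2: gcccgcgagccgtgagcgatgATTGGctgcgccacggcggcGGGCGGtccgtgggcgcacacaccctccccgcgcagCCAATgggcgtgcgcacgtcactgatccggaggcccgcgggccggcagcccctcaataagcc
FLVCR1: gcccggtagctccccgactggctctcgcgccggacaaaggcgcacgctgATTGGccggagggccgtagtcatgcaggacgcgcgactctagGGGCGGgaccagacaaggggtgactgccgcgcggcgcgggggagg
CENATAC: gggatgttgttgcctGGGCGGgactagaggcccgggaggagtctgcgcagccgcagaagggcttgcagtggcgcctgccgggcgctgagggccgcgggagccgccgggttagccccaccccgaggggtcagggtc
The gap of RPL34 held none of the 3 motifs and 8 CG dinucleotides, that of C2orf74 none and 13, and that of IRX2 held CCAAT and GGGCGG and 24 CG dinucleotides. No match says only that these letters are not in this stretch.

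With the settings used here, the divergent lncRNAs as a set did not lean clearly to either line. Log2 ratios of REH over 697 were above 0 for 53 members and below 0 for 51, with a median of 0.04, and the middle 50% of members lay between -0.67 and 0.89. A gene was called higher in a line where its log2 ratio reached 2 in either direction. By this limit 6 members were higher in REH and 8 in 697, together 13.5% of the set, whereas 20.7% of all 19145 tested genes, those with 10 or more reads in either library, passed it (12.5% higher in REH and 8.15% in 697). Among lncRNAs of every kind with at least 100 reads in a library the share was 26.1%, and among coding genes with as many reads 14.4%. The median size of the log2 ratio was 0.78 in the members, 0.97 in those lncRNAs and 0.57 in those coding genes. Counting error alone left 20 members with an interval that held 0, while 46 intervals lay above 0 and 38 below. Of the 63 members with 100 reads in both lines, 2 passed the limit and 28 were above 0, with a median of -0.11.

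Scaling of the libraries sets where 0 lies. With unscaled library totals all log2 ratios rise by 0.31, members above 0 become 68 of 104 (65.4% against 51.0%) and partners above 0 become 66 of 102 (64.7% against 49.0%). Any ratio given below that lies between -0.31 and 0 thus turns positive with unscaled totals. The difference between a member and its partner does not depend on scaling.

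**Figure D1:**
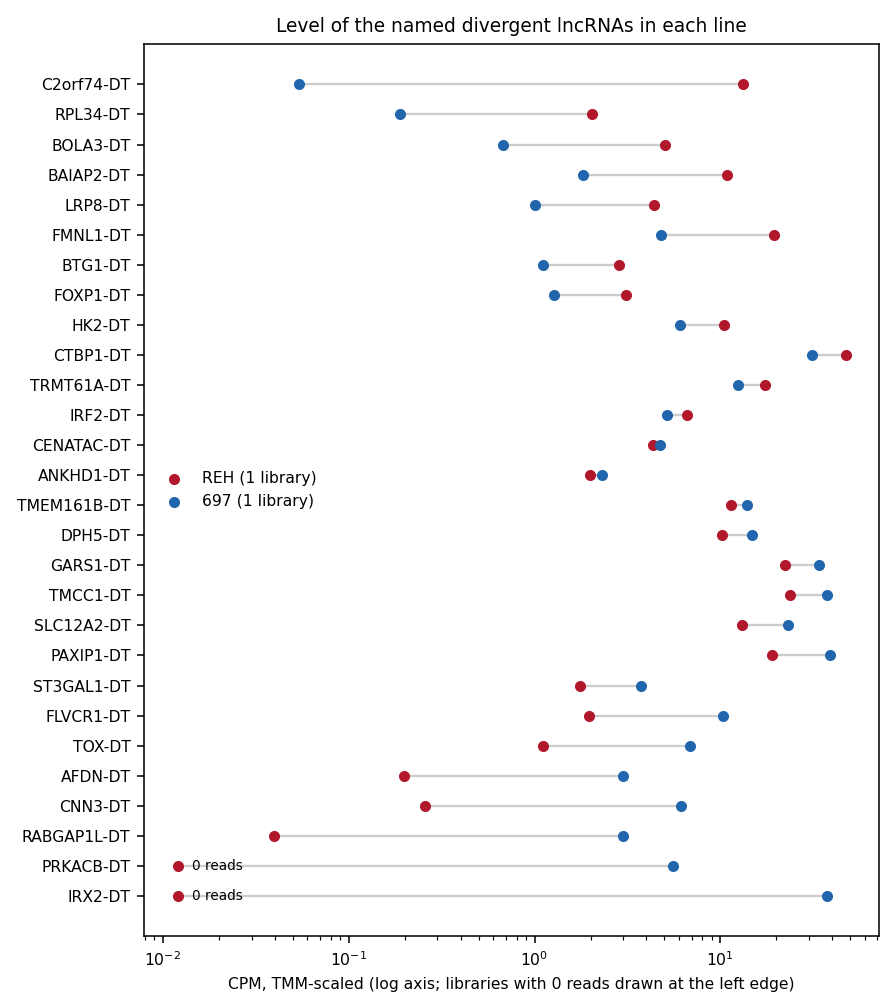
Level of 28 named divergent lncRNAs in CPM on a log axis, 1 row per lncRNA in order of the log2 ratio, with REH in red and 697 in blue and 1 library per line. C2orf74-DT stands at 13.2 CPM in REH and 0.0541 CPM in 697 at the top, and PRKACB-DT and IRX2-DT, drawn at the left edge for REH, had 0 reads there.

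The most abundant member was CTBP1-DT, beside the gene of the corepressor CtBP1, with 2376 reads in REH and 1147 in 697, or 47.3 and 31.0 CPM. PAXIP1-DT, beside the gene of the DNA damage and chromatin protein PTIP, was the most abundant in 697, with 948 reads in REH and 1437 in 697. Most members were rarer, and the median member had 4.61 CPM in REH and 5.14 CPM in 697. TMCC1-DT had 1185 and 1379 reads, GARS1-DT 1120 and 1253, and FMNL1-DT 973 and 177. All 104 members together made up 691 CPM in REH and 727 CPM in 697.

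Per kb of exon in the GENCODE annotation, the lncRNAs were at the median less abundant than the coding genes they face. The median level was 1.25 CPM per kb for members and 8.02 CPM per kb for partners in REH, and 1.41 and 9.30 CPM per kb in 697. Over 100 pairs with reads in REH, the member lay below its partner by a median of 5.30-fold (log2 difference in level -2.40). Over 102 pairs in 697 it did so by 6.56-fold (log2 difference in level -2.71). These sizes depend on exon lengths that may not match the unknown annotation used for counting. Reads in stretches shared by genes were set aside, while the bases of those stretches stayed in the lengths. For members whose exons overlap no other gene, the median log2 difference in level was -1.95 in REH and -2.40 in 697. Within a line, the level of a member and that of its partner had a Spearman rho over pairs of 0.20 in REH and 0.15 in 697. The log2 distance in level between member and partner in REH and that in 697 had a rho of 0.88 over pairs. These correlations run over genes of the same libraries and carry no test.

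The lncRNA exceeded its partner per kb in 11 pairs in REH and in 13 in 697. BAIAP2-DT led in REH with 2.28 CPM per kb, against 0.311 for BAIAP2, an adaptor of actin-rich protrusions, and it also exceeded it in 697 (0.380 against 0.0736). ANKHD1-DT, ZNF778-DT, ZNF584-DT, ZNF582-DT, PAXIP1-DT, MCPH1-DT, EMSY-DT, TBC1D22A-DT and RAB30-DT lay above their partners in both lines. TOX-DT did so in REH, and TMCC1-DT, ANKRD42-DT and USP46-DT in 697. At the other end stood RPL34-DT, at 0.370 CPM per kb against 49.5 for its ribosomal protein gene in REH and 0.0345 against 130.03 in 697.

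**Figure D2:**
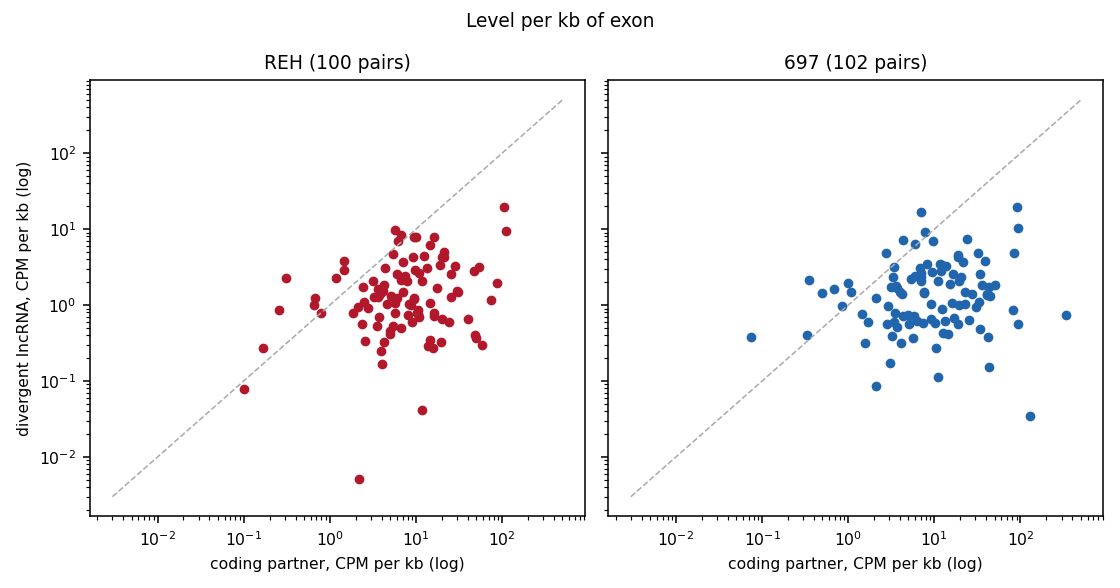
Level of each divergent lncRNA (vertical axis) against its coding partner (horizontal axis), both in CPM per kb of merged exon on log axes, for 100 pairs in REH (left) and 102 pairs in 697 (right), with the dashed line at equal levels. Nearly all points lie below the line, with 11 above it in REH and 13 in 697.

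To see whether a lncRNA followed the gene it faces, the log2 ratios of both were set side by side. The partner had an entry in the count data for 103 members (ZNF8 had none), and 102 partners had at least 10 reads in a library. Member and partner had log2 ratios of the same sign in 74 of 102 pairs (72.5%), 37 with both higher in REH and 37 with both higher in 697. In 15 pairs the lncRNA was above 0 and the partner below, and in 13 the reverse held. The rho over pairs was 0.56 and Pearson's r 0.72, the latter 0.54 without the IRX2 pair (rho 0.54). In the 62 pairs whose lncRNA had 100 reads in both lines, rho was 0.48 and r 0.45.

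The next nearest coding gene served as a comparison from the same region, at a median distance of 60661 bases from the lncRNA. It had the same sign as the lncRNA in 58 of 104 cases (55.8%), with a rho of 0.20. Antisense lncRNAs, taken by symbols that end in -AS with or without a number, were treated in the same way. Their overlap with the coding gene named before -AS was not checked. With at least 100 reads in a line there were 257 of them, 23.3% past the limit, and 177 of 248 pairs (71.4%) had the same sign with a rho of 0.62. These values are given side by side and their differences were not tested.

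Where the partner differed strongly, the lncRNA mostly had the same sign. Among the 25 partners whose log2 ratio reached 1 in size, a limit that 39.8% of all tested genes passed, the lncRNA had the same sign in 23, namely 6 of 7 with the partner higher in REH and 17 of 18 with the partner higher in 697, and in 15 it also reached a log2 ratio of 1 in size. The converse was looser. Among the 39 paired lncRNAs that reached 1 in size, 32 partners had the same sign but 23 stayed within 1 of 0. Of the 13 paired lncRNAs past the limit of 2, 5 faced a partner past the limit in the same direction (1 of them BAIAP2, close to the limit), whereas 9 partners in all (8.82%) passed it.

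The reads cannot be assigned to a strand. Labels describe stranded libraries, but the strand of the gene held 50.1% of gene reads in REH and 50.2% in 697, and reads in stretches shared by genes were set aside as ambiguous. In pairs with overlapping exons (31) the sign was shared in 25 with a rho of 0.74, and in pairs with no such overlap (71) in 49 with a rho of 0.48. The 51 pairs whose lncRNA overlaps no exon of any other gene had the same sign in 35, also with a rho of 0.48. For MVP-DT, whose exons overlap those of other genes, the strand columns together held 145.2 times as many reads in REH as the column used here, so its ratio of -0.08 rests on a small remnant. The same ratio was 8.48 in REH and 18.0 in 697 for TMED2-DT and 5.97 and 6.07 for BTG1-DT, and it exceeded 1.1 for 25 members in REH and 27 in 697.

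**Figure D3:**
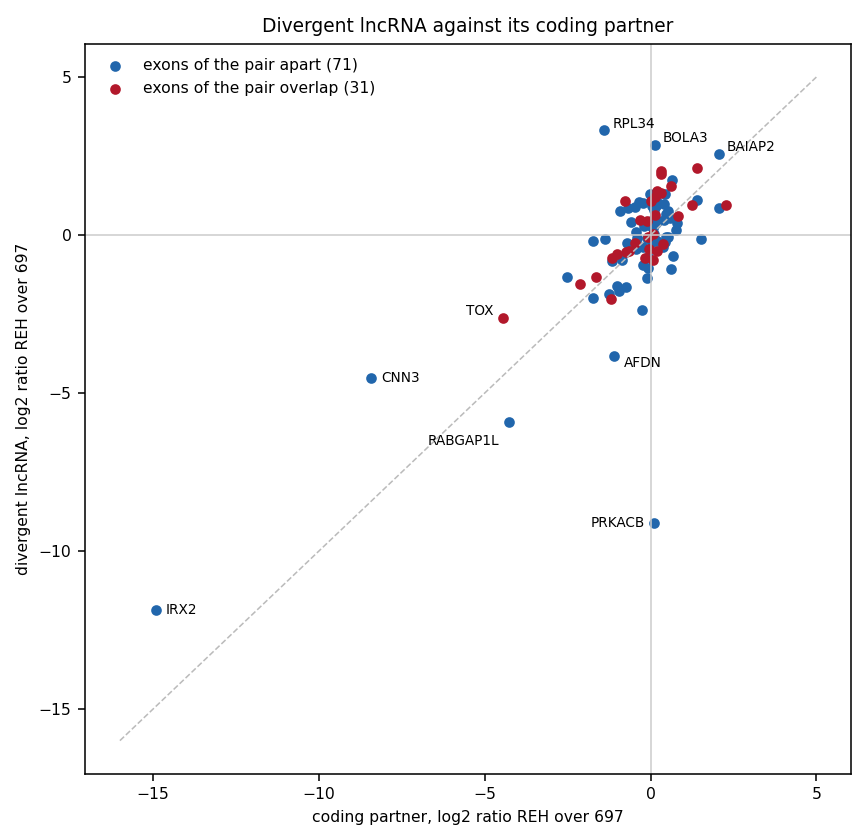
Log2 ratio of REH over 697 of each divergent lncRNA (vertical axis) against that of its coding partner (horizontal axis) for 102 pairs, in red where their exons overlap (31) and in blue where they do not (71), with the dashed line at equal ratios. IRX2, CNN3, RABGAP1L and TOX lie in the quadrant of both lower in REH, while the lncRNA of PRKACB lies far below a partner near 0 and those of RPL34 and BOLA3 above partners at -1.39 and 0.12. The ratios of IRX2 and PRKACB-DT rest on 0 reads in REH and are not measured sizes.

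The pair that differed most was that of IRX2, an Iroquois homeobox transcription factor. IRX2-DT (chromosome 5, 2752131 to 2755397, plus strand) had 0 reads in REH and 1377 in 697, or 37.3 CPM. IRX2 itself (chromosome 5, 2745845 to 2751677) had 0 reads in REH and 11397 in 697, or 308 CPM. With REH set at the floor of 3 reads, the lncRNA was at least 624-fold lower and the coding gene at least 5169-fold lower in REH. Since both were at 0 there, their difference cannot be given.

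CNN3-DT and CNN3 were also low together in REH. CNN3-DT (chromosome 1, 94927361 to 94963616, plus strand) had 13 reads in REH and 226 in 697, a log2 ratio of -4.51 (-5.50 to -3.76). CNN3, which encodes an actin-binding calponin, had 14 and 3659 reads, a log2 ratio of -8.42 (-9.35 to -7.73). The coding gene thus differed more, by a log2 difference of 3.91 (2.68 to 5.12) between the ratios.

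RABGAP1L-DT (chromosome 1, 174110268 to 174160165, minus strand) had 2 reads in REH and 111 in 697, a log2 ratio of -5.92 (-9.30 to -4.35). RABGAP1L, a regulator of Rab GTPases in membrane traffic, had 1763 and 25055 reads, a log2 ratio of -4.27 (-4.34 to -4.20). The interval of the difference of these ratios reached from -5.03 to -0.08. TOX-DT (chromosome 8, 59119040 to 59123478, plus strand) had 56 and 253 reads, a log2 ratio of -2.61 (-3.06 to -2.20). TOX, a nuclear factor best known from T cell development, had 34 reads in REH and 553 in 697, a log2 ratio of -4.45 (-5.01 to -3.97). Per kb the lncRNA lay above TOX in REH and below it in 697.

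Among members higher in REH, both genes were higher for BAIAP2 and LRP8. BAIAP2-DT (chromosome 17, 81029130 to 81034881, minus strand) had 547 reads in REH and 67 in 697, a log2 ratio of 2.58 (2.22 to 2.97). BAIAP2 had 161 and 28 reads, a log2 ratio of 2.06 (1.49 to 2.71), and the difference of the ratios had an interval that held 0 (-0.24 to 1.22). The ratio of BAIAP2 came to 1.89 with 5 reads added and to 1.81 in the column for the opposite strand, below the limit. LRP8-DT (chromosome 1, 53328233 to 53336509, plus strand) had 4.42 CPM in REH and 1.0 CPM in 697 (222 and 37 reads), a log2 ratio of 2.12 (1.63 to 2.68). LRP8, a receptor for apolipoprotein E and reelin, had 9509 and 2637 reads, a log2 ratio of 1.41 (1.34 to 1.47), so that the ratios differed by 0.72 (0.22 to 1.28). LRP8-DT fell below the limit of 2 with 5 reads added (1.99) and in the column for the strand of the gene (1.78).

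Other lncRNAs parted from their gene. PRKACB-DT (chromosome 1, 84076331 to 84077961, minus strand) had 0 reads in REH and 205 in 697, or 5.55 CPM, at least 93.0-fold lower in REH. PRKACB, a catalytic subunit of protein kinase A, had 4627 and 3135 reads, a log2 ratio of 0.12 (0.05 to 0.18). The gene was thus expressed in both lines at 92.1 and 84.9 CPM while its divergent lncRNA was seen in 697 alone at this depth.

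C2orf74-DT (chromosome 2, 61141592 to 61144969, minus strand) was the member with the largest ratio toward REH. It had 663 reads in REH and 2 in 697, a log2 ratio of 7.61 (6.07 to 10.98). C2orf74, a gene of unknown function, was listed at 0 reads in both lines in every count column, so no ratio and no difference can be given for it. The annotation used for counting is not known, and if its gene models differ here from GENCODE 44, reads listed under C2orf74-DT could belong in part to another transcript.

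RPL34-DT (chromosome 4, 108538190 to 108620475, minus strand) went the other way from its gene. It had 102 reads in REH and 7 in 697, a log2 ratio of 3.33 (2.33 to 4.77). RPL34, a protein of the large ribosomal subunit, had 8722 reads in REH and 16838 in 697, a log2 ratio of -1.39 (-1.43 to -1.36). The ratios differed by 4.72 (3.72 to 6.17), the largest difference in this direction, and this lncRNA lies just inside the read minimum.

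BOLA3-DT (chromosome 2, 74148007 to 74151952, plus strand) had 252 reads in REH and 25 in 697, a log2 ratio of 2.86 (2.29 to 3.54). BOLA3, which serves iron-sulfur cluster assembly in mitochondria, had 509 and 344 reads, a log2 ratio of 0.12 with an interval that held 0 (-0.08 to 0.32). FMNL1-DT (chromosome 17, 45190931 to 45222274, minus strand) had 973 and 177 reads, a log2 ratio of 2.01 (1.78 to 2.25), beside a formin gene at 0.33 (0.27 to 0.38). It stood at the limit, since it came to 1.98 with DESeq2 size factors, and the strand columns, which keep reads that overlap other genes, gave 1.33 and 1.18.

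Among members higher in 697, AFDN-DT (chromosome 6, 167822103 to 167826833, minus strand) had 10 reads in REH and 110 in 697, a log2 ratio of -3.84 (-5.0 to -2.97). AFDN, the junction adaptor afadin, had 8124 and 12707 reads, a log2 ratio of -1.09 (-1.13 to -1.05). FLVCR1-DT (chromosome 1, 212852105 to 212858139, minus strand) had 99 and 380 reads, a log2 ratio of -2.38 (-2.72 to -2.06). FLVCR1, a membrane transporter of heme and choline, had 1616 and 1418 reads, a log2 ratio of -0.26 (-0.36 to -0.15). Both lncRNAs were thus lower in REH by more than their genes, with differences between the log2 ratios of -2.75 (-3.91 to -1.88) and -2.12 (-2.48 to -1.79). SAP30-DT was the last member past the limit, which it no longer reached with unscaled totals, with 148 and 448 reads and a log2 ratio of -2.04, beside SAP30, a subunit of the Sin3 deacetylase complex, at -1.18.

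**Figure D4:**
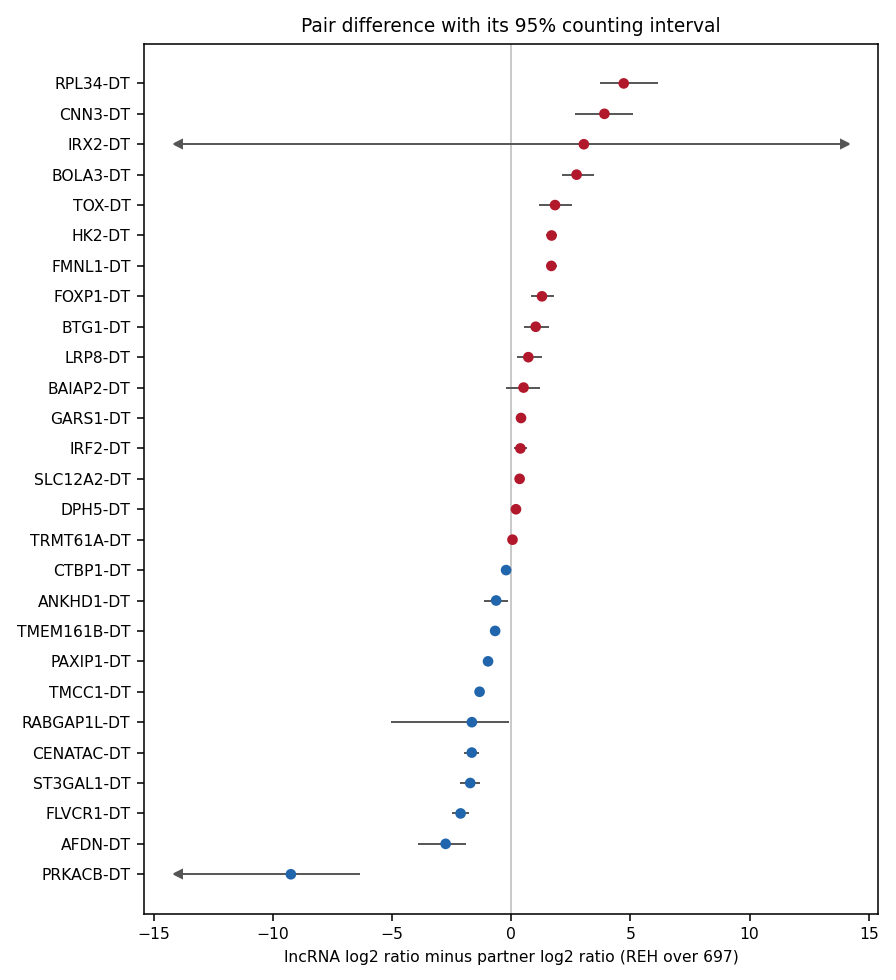
Difference between the log2 ratios of named divergent lncRNAs and those of their coding partners, with 95% counting intervals as bars and arrowheads where an interval has no bound, in red above 0 and in blue below. RPL34-DT (4.72) and CNN3-DT (3.91) lie at the top and AFDN-DT (-2.75) and PRKACB-DT at the bottom, and the IRX2 difference has no bound on either side.

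Over the 101 pairs whose difference could be bounded, the lncRNA's log2 ratio exceeded the partner's in 60, with a median difference of 0.21. The difference was at least 2 in 3 pairs and at most -2 in 3. Its median size over all 102 pairs was 0.65, and in 68 of them it stayed within 1 of 0. Intervals of 45 differences lay above 0, 31 lay below and 26 held it, so most pairs differed by more than counting error. The lncRNA's ratio was the one farther from 0 in 63 of 102 pairs. Members were chosen by their own reads, 27 of them through REH alone and 14 through 697 alone, whereas partners were not. What part this choice has in the counts of differences was not tested.

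Among the pairs that parted by less, HK2-DT had 523 reads in REH and 225 in 697, a log2 ratio of 0.77 (0.55 to 1.01). HK2, the hexokinase that opens glycolysis in proliferating cells, had 2947 and 4109 reads, a log2 ratio of -0.92 (-0.99 to -0.86). CENATAC-DT had 217 and 175 reads, a log2 ratio of -0.13 with an interval that held 0 (-0.43 to 0.16). CENATAC, a protein needed for minor-intron splicing, had 2530 and 648 reads, a log2 ratio of 1.52 (1.40 to 1.65). ST3GAL1-DT had 88 and 138 reads, a log2 ratio of -1.09 (-1.50 to -0.70), against 0.63 (0.55 to 0.71) for ST3GAL1, a sialyltransferase. Hence a gene could be higher in REH with a lncRNA that was not, and the reverse.

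The smallest differences were looked for among lncRNAs with at least 500 reads in both lines, where counting error is small. Within this class they included those of DPH5, CTBP1, SLC12A2, GARS1 and TMEM161B, and being listed does not by itself make a pair close. Closer pairs with fewer reads were also present, such as UBL7-DT (261 and 206 reads, difference -0.01). DPH5-DT, beside a gene of diphthamide synthesis, had 513 and 544 reads with a log2 ratio of -0.53, and its partner stood at -0.73. CTBP1-DT stood at 0.61 (0.50 to 0.71) and CTBP1 at 0.82 (0.77 to 0.87). SLC12A2-DT, beside the gene of a sodium, potassium and chloride cotransporter, had 658 and 851 reads (-0.81), with the partner at -1.17. GARS1-DT stood at -0.61 and GARS1, the glycyl-tRNA synthetase, at -1.02. Even so, of these 5 differences only that of DPH5 had an interval that held 0 (-0.01 to 0.41). The signs of TMEM161B-DT (-0.29) and TMEM161B (0.39) differed, so that pair was not a close one. TRMT61A-DT, with fewer reads in 697 (868 and 459), matched its tRNA methyltransferase gene closely, at 0.47 and 0.42.

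The members were grouped by the known role of their partner, a grouping made after names and values had been seen. The largest group faced 19 genes of transcription and chromatin, and 9 of its lncRNAs were above 0 and 10 below. None of them passed the limit toward REH, which 12.5% of all tested genes did, and 3 passed it toward 697 (IRX2-DT, TOX-DT and SAP30-DT), which 8.15% did, and 13 of 18 pairs shared their sign. KDM7A-DT, beside a histone demethylase gene, had 135 and 29 reads (1.76) with its partner at 0.66. MTA1-DT, beside a subunit gene of the NuRD complex, had 307 and 124 reads (0.86) with its partner at -0.67. Zinc finger genes ZNF747 and ZNF778 exceeded their lncRNAs in ratio, at 2.26 and 2.08 against 0.95 and 0.86.

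Of the blood and leukemia genes on the list used for naming, the group held TOX and IRX2, whose lncRNAs were lower in REH, and also FOXP1, BTG1 and IRF2. FOXP1-DT, beside a transcription factor gene of B-cell development, had 157 reads in REH and 47 in 697, a log2 ratio of 1.29 (0.82 to 1.80), while FOXP1 stood at -0.01 (-0.06 to 0.05). BTG1-DT, beside an antiproliferative gene that is often deleted in this leukemia, had 143 and 41 reads, a log2 ratio of 1.35 (0.85 to 1.90), while BTG1 stood at 0.32 (0.24 to 0.40). IRF2-DT, beside a gene of an interferon regulatory factor, had 333 and 191 reads, a log2 ratio of 0.36 (0.10 to 0.62), while IRF2 stood at -0.03 (-0.10 to 0.04). In these 3, unlike TOX-DT and IRX2-DT, the lncRNA was higher in REH beyond counting error, by more than its gene. The ratio of IRF2-DT was less settled, at 0.15 in the column for the strand of the gene and 0.63 in the other. BTG1-DT rests on a part of its reads, since the strand columns held 5.97 times as many in REH and 6.07 times in 697. In these columns its ratio was 1.44 and 1.29.

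RNA processing and translation genes were the partners of 15 members, 9 above 0 and 6 below, with a median of 0.37 for lncRNAs and 0.11 for partners. RPL34-DT was the single member past the limit, toward REH, which 12.5% of all tested genes passed in that direction. The sign was shared in 8 of 15 pairs. SRP14-DT, beside a gene of the signal recognition particle, had 317 and 113 reads (1.04) with its partner at -0.35. CSTF3-DT, beside a gene of the 3′ end cleavage machinery, had 156 and 62 reads (0.88) with its partner at -0.45. EIF2AK3-DT, beside the gene of the stress kinase PERK, had 351 and 199 reads (0.37), whereas the partner's ratio was higher, at 0.80.

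Partners in cytoskeleton and membrane traffic numbered 13, with 6 lncRNAs above 0 and 7 below. This group held 2 lncRNAs past the limit toward REH (BAIAP2-DT and FMNL1-DT) and 3 toward 697 (AFDN-DT, CNN3-DT and RABGAP1L-DT), beside 12.5% and 8.15% of all tested genes, and 10 of 13 pairs shared their sign. TMCC1-DT, beside a gene of an endoplasmic reticulum membrane protein, stood at -0.66 with TMCC1 at 0.66, a difference of -1.33 (-1.49 to -1.16). ARFGEF1-DT, beside the gene of an exchange factor for Arf GTPases, had 67 and 197 reads (-1.99) with its partner at -1.74.

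Metabolic and mitochondrial genes were the partners of 13 members, 6 above 0 and 7 below, and 10 pairs shared their sign. MOCS2-DT, beside a gene of molybdenum cofactor synthesis, had 137 and 26 reads (1.93) with its partner at 0.32. NDUFA6-DT, beside a gene of respiratory complex I, had 740 and 262 reads (1.05) with its partner at 0.21. ODC1-DT, beside the ornithine decarboxylase gene of polyamine synthesis, had 70 and 130 reads (-1.33), and its partner differed more, with 9761 and 41121 reads (-2.52).

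Of 10 members beside genes of protein turnover and folding, 6 were above 0 and 4 below, and of 9 beside signalling genes 5 and 4. ZFAND2A-DT, beside a stress-induced gene of the proteasome, had 488 and 123 reads (1.54) with its partner at 0.61. USP46-DT, beside a deubiquitinase gene, had 92 and 247 reads (-1.86) with its partner at -1.27. PTPN23-DT, beside a phosphatase-like endosomal gene, had 151 and 52 reads (1.08), against -0.77 for its partner. RIPK2-DT, beside a kinase gene of NOD receptor signalling, had 169 and 314 reads (-1.34) with its partner at -1.63.

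The 7 members beside transporters and receptors shared the sign of their partner in all 7 pairs, 2 above 0 and 5 below. ATP6V0D1-DT, beside a subunit gene of the vacuolar proton pump, had 167 and 56 reads (1.12) with its partner at 1.40. The 5 members beside genes of chromosome structure and the nucleus also shared their sign in all 5 pairs, and WAPL-DT, beside the gene that releases cohesin, was lowest there with 42 and 107 reads (-1.78, partner -0.96). NUP50-DT, beside a nuclear pore gene, had 273 and 510 reads (-1.34) with its partner at -0.10. With so few pairs per group, these counts are a description.

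By position, chromosome 8 held 9 members and 8 of them were below 0, with a median of -1.09. Their partners had a median of -1.0, and all 381 coding genes on this chromosome with at least 100 reads a median of -0.47. RNF139-DT (272 and 606 reads, -1.60) and ARFGEF1-DT lay lowest there after TOX-DT. Chromosome 16 held 5 members, 4 above 0, with a median of 0.86, a partner median of 1.40 and a median of 0.65 over 561 coding genes. The part of the whole chromosome in these ratios was not tested. All 3 members on chromosome 12 were above 0 (TMED2-DT, BTG1-DT and TMEM263-DT, median 1.35), where the coding median was -0.10. Of these, TMED2-DT rests on a small remnant, since the strand columns held 8.48 times as many reads in REH and 18.0 times in 697. They held 5.97 and 6.07 times as many for BTG1-DT.

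**Figure D5:**
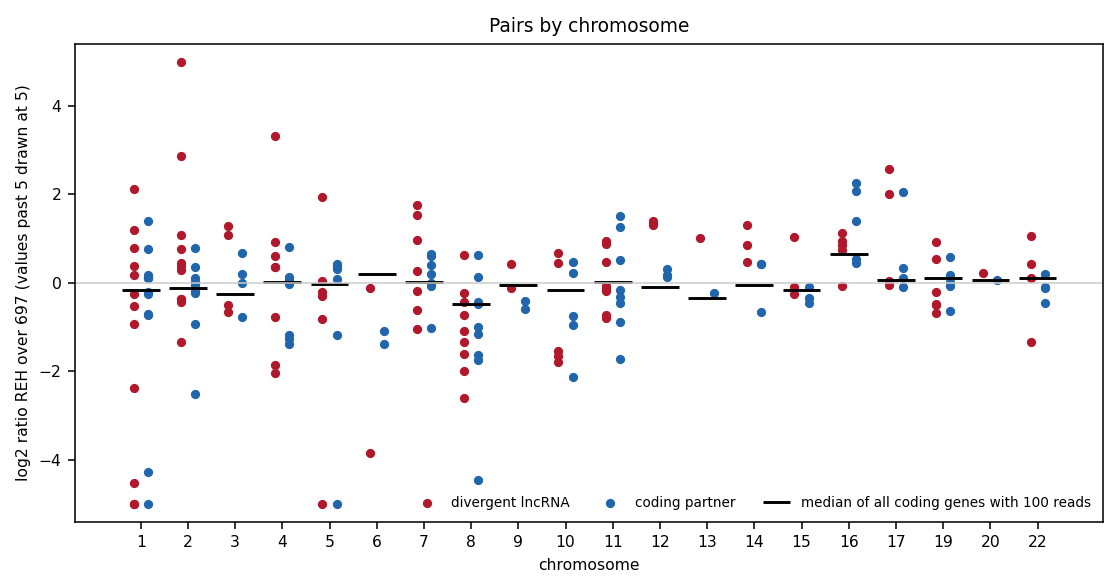
Log2 ratio of REH over 697 by chromosome, with each divergent lncRNA in red, each coding partner in blue and a black bar at the median of all coding genes with at least 100 reads; values past 5 in size are drawn at 5 and chromosomes with no member are left out. On chromosome 8 the lncRNAs, their partners and the median of all coding genes (-0.47) lie mostly below 0, and on chromosome 16 mostly above (0.65).

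Genes that limit divergent transcripts or shield the coding RNA were read from a list of 39 members of the nuclear exosome, its adaptors, the U1 particle and the Integrator complex. All had entries, 14 were above 0 and 25 below, and none reached a log2 ratio of 2 in size. That limit was reached by 20.7% of all tested genes and 14.4% of coding genes with at least 100 reads. Their median was -0.18, against 0.05 over all genes tested and -0.03 over coding genes with at least 100 reads. EXOSC4 (236 reads in REH and 502 in 697, -1.53) and EXOSC7 (786 and 1272, -1.14), core exosome subunits, were the only ones to reach 1 in size, as 39.8% of all tested genes did. Of the 11534 coding genes with at least 100 reads, 1780 reached it toward REH and 1716 toward 697. ZC3H18, which links the cap to the exosome, was highest at 0.94 (9665 and 3715 reads).

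At the read minimum, the last members inside were ANKHD1-DT, with 100 reads in REH and 85 in 697, and RPL34-DT, with 102 and 7. AJUBA-DT, with 102 and 30 reads, tied with RPL34-DT in its higher line. The first genes outside were TWF2-DT, with 47 and 99 reads, and MAP2K5-DT, with 96 and 80. Of the 557 divergent lncRNAs, 453 lay below the minimum, 209 of them with 10 to 99 reads in the higher line, 138 with 1 to 9 and 106 with 0 in both.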

How the data were processed

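RNA of REH and 697 was sequenced as 1 library per line, and groups were taken from the labels. The authors deposited raw counts of reads per gene, made with STAR. The labels name hg19 and the study's methods hg38, ribodepletion and poly(A) selection likewise differ, and the annotation release is not given in the sources used here. Counts of both strands together were used, and rows naming no gene (29.3% of reads in REH, 30.3% in 697) were left out. Symbols, biotypes and positions came from GENCODE 44 (GRCh38) by gene ID, and promoter sequences from RefSeq.

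Totals were scaled by TMM in edgeR 4.0.16 under R 4.3.3 (factors 1.11 and 0.899) over the 19145 genes that reached 10 reads in either library. Ratios are log2 of REH over 697, with 0.5 reads added to each count and exact 95% Clopper-Pearson intervals, and the interval of a pair difference is the conditional exact interval of the odds ratio. Fold bounds against 0 reads set each library's floor at 3 reads. No count test was run, since edgeR and DESeq2 need replicates. The script was tested on simulated data. Other steps ran in Python 3.11.15 with scipy 1.17.1, numpy 2.4.6 and pandas 2.3.3, and figures in matplotlib 3.10.9.

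Members and lists were chosen with earlier results of these data known. Genes were named by rule, namely the most abundant members, those with intervals of the ratio or of the pair difference farthest from 0, the closest pairs with at least 500 reads, those at the read minimum and those beside blood and leukemia genes. Some items that these rules and lists name are not reported here. Genes named in the role groups, by chromosome and among those exceeding their partner per kb were chosen after their values were seen. Alternatives were DESeq2 1.42.0 size factors, unscaled totals, 5 reads added, each strand column, read minimums of 10 and 500, a threshold of 1 and subsets of pairs.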

Additional observations from a re-analysis of the deposited data

How the results depend on the processing

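No paired analysis was possible because REH and 697 were each sequenced as 1 library, and for the same reason no replicate could be left out. The partner median, -0.00 as reported, came to 0.30 with unscaled totals. The member median, 0.04 as reported, came to 0.35 with unscaled totals and to 0.30 with a read minimum of 10 or of 500. It was 0.24 for members overlapping no other gene. With DESeq2 size factors, 5 reads added or either strand column it stayed between 0.01 and 0.03. More members passed the limit toward 697 (8) than toward REH (6) as reported, and this balance turned under both read minimums, the threshold of 1 and unscaled totals (7 and 8). With 5 reads added or the column for the strand of the gene, 4 members were higher in REH, as FMNL1-DT and LRP8-DT fell below the limit. With a minimum of 10 reads, 34 members were higher in REH and 22 in 697, 15 and 18 partners passed the limit, and the median log2 difference in level per kb fell to -3.84 in REH and -4.29 in 697. A minimum of 500 reads left 3 members higher in REH and 1 in 697, and 1 partner each way. A threshold of 1 gave 21 and 19 members and 7 and 18 partners. Alternatives added after seeing the data left out the IRX2 pair, required 100 reads in both lines, or kept members overlapping no other gene, the last with 4 higher in 697. Of 57 named ratios, unscaled totals changed the sign of 7 (PAXIP1, FLVCR1, FOXP1, IRF2, CENATAC-DT, TMEM161B-DT and ANKHD1-DT), the strand columns of 2 and 3 (among BOLA3, PAXIP1, FOXP1 and IRF2), and DESeq2 size factors or 5 added reads of none. With these libraries, genes below the floor of 3 reads cannot be told from absence.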

Other observations

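Below the read minimum of 100, the 209 divergent lncRNAs with 10 to 99 reads in the higher line included 28 higher in REH and 14 higher in 697 by the log2 limit of 2, 20.1% of this class, against 20.7% of all tested genes. Their signs matched those of the partners in 132 of 206 pairs (64.1%). The genes named here were chosen after their values were seen. ITPRID2-DT had 77 reads in REH and 0 in 697, beside ITPRID2 with 6024 and 2 reads. BARX1-DT had 94 and 0 reads, beside the homeobox gene BARX1 with 83 and 10. PATJ-DT had 0 and 23 reads, beside the cell polarity gene PATJ with 5 and 736. In these the lncRNA and its gene were high in the same line. PSMD14-DT had 0 reads in REH and 35 in 697, whereas PSMD14, a deubiquitinase of the proteasome, had 4377 and 4310 reads. MRPS35-DT had 2 and 47 reads, whereas MRPS35, a mitochondrial ribosomal protein gene, had 3241 and 2833.

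Among partners on the list of blood and leukemia genes, CEBPA-DT had 0 reads in REH and 22 in 697, and CEBPA, the myeloid transcription factor, had 0 and 29, at least 9.98-fold and 13.2-fold lower in REH. NETO1-DT had 39 reads in REH and 0 in 697, and NETO1, a glutamate receptor auxiliary protein gene, had 1010 and 0. PBX3-DT (36 and 20 reads) and RB1-DT (18 and 9) were low in both lines. CDKN2A-DT, CD44-DT and PRDM16-DT had 0 reads in both, while CDKN2A had 0 reads in REH and 112 in 697.

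Divergent lncRNAs with 0 reads in both lines numbered 106. Their partners were not all silent, since 53 of them reached 1 CPM in a line, against 120 of 136 partners of lncRNAs with 1 to 9 reads and 204 of 207 partners of those with 10 to 99. The median level of the partner in its higher line was 1.22 CPM, 51.9 CPM and 59.4 CPM in these classes.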
